A study of Mus musculus with 47 samples.

Results

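The 34 genes described here encode complement and coagulation proteins that the liver secretes into blood. Each was found on the arrays by its gene symbol, and the probe of that symbol with the highest mean signal over all mice stood for it, so that 34 of the 21737 genes tested were followed, 14 of complement, 18 of coagulation and fibrinolysis, and 2 (*Serping1* and *Vtn*) that act in both. Hepatic mRNA was measured on 1-colour arrays in 47 mice of 8 groups, given by sex, by genotype for the pregnane X receptor (PXR, gene *Nr1i2*) and by treatment. The mice were C57BL/6J littermates, *Pxr*+/+ or *Pxr*-/-, born to *Pxr*+/- dams and 6 months old when treatment began. They received plain water (Cont) or water that held vancomycin at 0.5 g/L with ampicillin and neomycin, each at 1 g/L, for 2 weeks (ATB). Each group held 6 mice, except *Pxr*-/- Cont males with 5, and all were killed at the same hour of the light phase. The deletion is not limited to the liver. By the study's methods each group was housed in 2 cages, with 3 mice per cage planned for arrays, and which mouse came from which cage was not given, so mice of a cage enter the tests as separate replicates and a cage effect cannot be told apart.

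Complement is a cascade of plasma proteins that marks and lyses microbes. Lectins such as the mannose-binding lectins recognise sugars on a surface, proteases then assemble convertases that cleave C3, and C5b, C6, C7, C8 and C9 join in the membrane attack complex, the terminal step. Coagulation is a parallel cascade of proteases that ends when thrombin turns fibrinogen into fibrin, and plasmin dissolves the clot. Hepatocytes make most proteins of both systems, several of them rise in the acute phase response to inflammation, and many liver genes differ between male and female rodents.

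Before the values, the start regions of 7 genes are shown, because the terminal complement genes *C6*, *C8a*, *C8b* and *C9* set males apart from females, whereas the fibrinogen genes *Fga*, *Fgb* and *Fgg* moved together between mice. The sequences are the 250 bases before the transcription start, 5′ to 3′ on the coding strand, from RefSeq annotation of GRCm38.p6. The windows lie at chr15:4726960-4727209 (*C6*, plus strand), chr4:104876399-104876648 (*C8a*, minus), chr4:104766067-104766316 (*C8b*, plus), chr15:6445096-6445345 (*C9*, plus), chr3:83025903-83026152 (*Fga*, plus), chr3:83049864-83050113 (*Fgb*, minus) and chr3:83007474-83007723 (*Fgg*, plus). *C8a* and *C8b* are neighbours on chromosome 4, and the fibrinogen genes lie side by side on chromosome 3. Capitals mark matches, on either strand, to TTCNNNGAA (a STAT motif) and TTGCNNAA (a C/EBP motif), and no marked match overlapped another.
C6: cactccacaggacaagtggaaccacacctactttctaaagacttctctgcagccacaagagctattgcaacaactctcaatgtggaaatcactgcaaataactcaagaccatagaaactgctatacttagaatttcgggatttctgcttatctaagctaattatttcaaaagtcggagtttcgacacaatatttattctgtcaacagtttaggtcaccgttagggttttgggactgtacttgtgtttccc
C8a: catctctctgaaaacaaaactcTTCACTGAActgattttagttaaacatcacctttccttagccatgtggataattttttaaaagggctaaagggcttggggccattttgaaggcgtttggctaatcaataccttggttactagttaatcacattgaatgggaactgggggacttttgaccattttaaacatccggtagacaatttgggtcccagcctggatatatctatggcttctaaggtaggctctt
C8b: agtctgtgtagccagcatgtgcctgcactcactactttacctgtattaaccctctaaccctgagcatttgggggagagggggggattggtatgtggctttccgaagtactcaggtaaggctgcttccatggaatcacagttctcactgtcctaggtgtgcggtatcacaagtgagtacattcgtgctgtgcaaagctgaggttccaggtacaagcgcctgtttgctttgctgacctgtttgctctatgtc
C9: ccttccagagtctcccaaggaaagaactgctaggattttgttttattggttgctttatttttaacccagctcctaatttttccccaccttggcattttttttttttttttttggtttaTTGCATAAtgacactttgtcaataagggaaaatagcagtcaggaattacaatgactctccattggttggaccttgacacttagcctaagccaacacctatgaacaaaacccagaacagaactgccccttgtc
Fga: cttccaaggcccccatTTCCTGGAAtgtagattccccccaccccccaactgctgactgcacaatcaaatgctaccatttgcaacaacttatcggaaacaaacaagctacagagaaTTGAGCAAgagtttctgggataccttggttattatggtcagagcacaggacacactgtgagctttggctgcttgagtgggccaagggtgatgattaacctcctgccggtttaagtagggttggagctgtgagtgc
Fgb: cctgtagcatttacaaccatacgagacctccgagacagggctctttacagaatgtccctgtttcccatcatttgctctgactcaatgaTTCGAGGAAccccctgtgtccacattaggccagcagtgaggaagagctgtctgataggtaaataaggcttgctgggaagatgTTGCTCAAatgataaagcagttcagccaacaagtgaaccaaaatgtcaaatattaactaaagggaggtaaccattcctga
Fgg: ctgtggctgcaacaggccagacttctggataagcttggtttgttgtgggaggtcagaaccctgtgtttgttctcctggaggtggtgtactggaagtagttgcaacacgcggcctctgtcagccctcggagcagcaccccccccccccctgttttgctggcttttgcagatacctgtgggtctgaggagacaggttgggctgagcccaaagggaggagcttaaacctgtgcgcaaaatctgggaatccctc
The *C8a*, *Fga* and *Fgb* windows each held a STAT match, and the *Fga*, *Fgb* and *C9* windows a C/EBP match, while the *C6*, *C8b* and *Fgg* windows held none of these letters. Of the 34 genes, 27 had a window: 5 held the STAT motif (7.18% of 27025 windows of the same length did), 7 the C/EBP motif (9.55%) and 2, *F11* and *Klkb1*, the FOXA motif TGTTTAC (3.09%). No window of the 27 held CAAAGTCCA, an HNF4 motif (0.381%), or the E-box CACGTG (6.05%). A match describes letters and shows no binding.

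The probes of the terminal genes lay, in the mm9 coordinates of the array files, at chr15:4689842-4705241 (*C6*, plus), chr4:104488479-104488538 (*C8a*, minus), chr4:104477094-104477153 (*C8b*, plus), chr2:25354176-25354235 (*C8g*, minus) and chr15:6447161-6448472 (*C9*, plus), and those of *Mbl2*, *F11* and *C2* at chr19:30314044-30314103 (plus), chr8:46326753-46326812 (minus) and chr17:34999575-34999634 (minus). Exons of that build were not used here, and mm9 and GRCm38.p6 positions are not comparable. All 34 probes were well above background and below saturation on all 47 arrays, with values given here as log2 signal after normalization. A gene was called when limma's Benjamini-Hochberg adjusted p over 32974 probes was 0.05 or less and the fold change was above 1.2, and a difference is always the log2 difference of group means with its standard error (SE). Levels of different probes are not comparable. The sex labels held in every mouse by sex chromosome genes (*Xist* and *Ddx3y* differed by -3.69 and 3.23 on the log2 scale). *Nr1i2* fell by 0.41 in *Pxr*-/- mice (adjusted p = 0.00288) and *Cyp2c55*, a known PXR-responsive gene, rose by 2.80, but the sources used here do not say whether the *Nr1i2* probe lies in the deleted part. Of 6 hepatocyte markers, all were detected on all 47 arrays and their mean lay between 17.22 and 17.54 in every mouse, with none called in any comparison. In bulk liver, fewer cells of a type and less RNA per cell cannot be told apart.

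The largest sex differences among the 34 genes lay in the terminal pathway. Of its 5 genes on the list, *C6*, *C8a*, *C8b* and *C9* were higher in males in each of the 4 genotype and treatment settings, whereas *C8g* was not called in any. Over the mean of the 4 settings, 26.9% of all genes tested were called by sex (3.32% higher and 23.6% lower in males). Of the 34 members 5 were higher (4 of complement and *F11*) and 10 lower, and each of the 15 had the same direction within all 3 wash batches.

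*C6*, which joins C5b and C7 at the start of the membrane attack complex, gave the largest difference of the 34. Its log2 signal (lowest, median, highest) was 10.93, 11.45 and 11.65 in *Pxr*+/+ Cont males, 11.33, 11.60 and 11.86 in *Pxr*+/+ ATB males, and 11.54, 11.75 and 12.07 in *Pxr*-/- ATB males, and the 5 *Pxr*-/- Cont males had 11.34, 11.54, 11.94, 11.58 and 10.93. Females had 8.05, 8.40 and 8.63 (*Pxr*+/+ Cont), 7.64, 7.78 and 8.46 (*Pxr*-/- Cont), 7.47, 8.31 and 8.53 (*Pxr*+/+ ATB) and 7.49, 7.78 and 8.24 (*Pxr*-/- ATB). Every male lay above every female, which held for 0.497% of all genes (1.23% did not overlap in either direction). The mean difference was 3.49 (SE 0.08, 95% interval 3.32 to 3.65), an 11.2-fold higher signal (limma, adjusted p = 3.57e-33), and it was 3.57, 3.53 and 3.16 within the 3 wash batches. By setting, the difference was 2.97 in *Pxr*+/+ Cont, 3.45 in *Pxr*+/+ ATB, 3.58 in *Pxr*-/- Cont and 3.94 in *Pxr*-/- ATB mice.

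**Figure D1:**
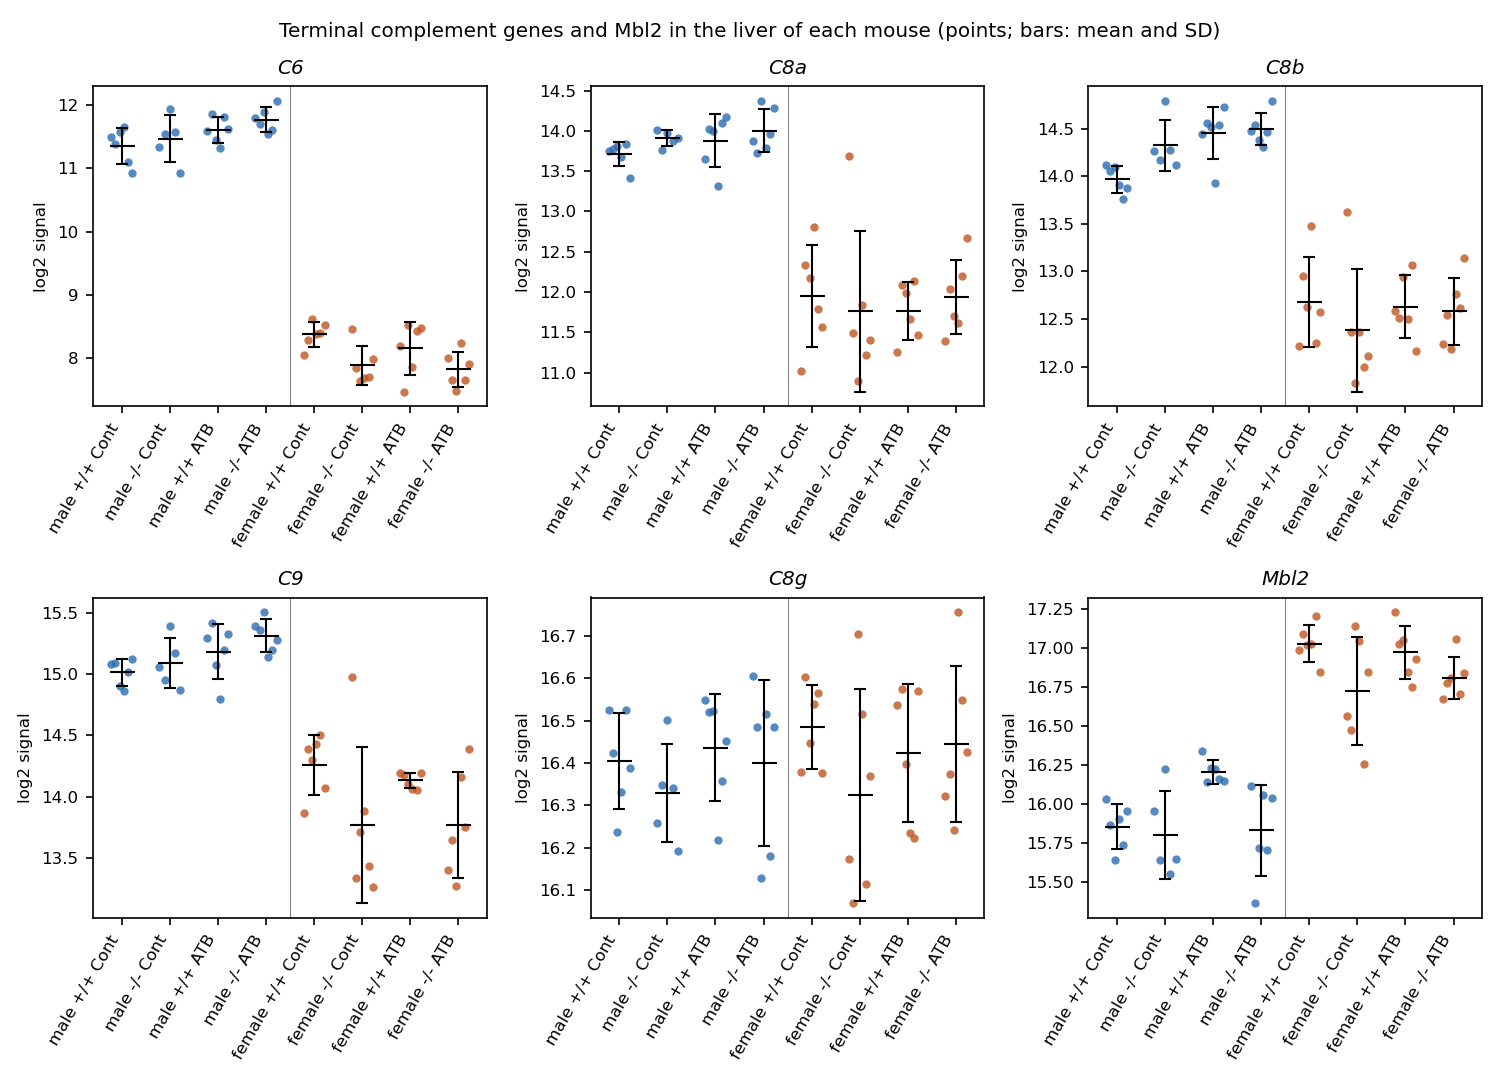
Log2 signal of *C6*, *C8a*, *C8b*, *C9*, *C8g* and *Mbl2* in each of the 47 mice, in the 8 groups given by sex, genotype and treatment. Points are mice (males blue, females orange) and bars are group means with SD; *C6* and *C8b* do not overlap between the sexes, 1 female exceeds the lowest male for *C8a* and for *C9*, *C8g* overlaps, and *Mbl2* is lower in males.

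C8 is built of the alpha, beta and gamma chains, encoded by *C8a*, *C8b* and *C8g*. *C8a* had 13.42, 13.76 and 13.83 in *Pxr*+/+ Cont males against 11.02, 11.98 and 12.81 in *Pxr*+/+ Cont females. In *Pxr*-/- Cont mice, the 5 males had 14.01, 13.76, 13.97, 13.88 and 13.92 and the females 10.89, 11.45 and 13.69. With ATB, males had 13.31, 14.01 and 14.17 (*Pxr*+/+) and 13.73, 13.92 and 14.38 (*Pxr*-/-), and females 11.26, 11.83 and 12.13 and 11.40, 11.87 and 12.67. Of 24 females, 1 was above the lowest male, *Pxr*-/- Cont female 1. The mean difference was 2.02 (SE 0.14, adjusted p = 6.05e-16), or 4.06-fold, with 2.05, 1.91 and 2.17 within the wash batches, and a further probe of *C8a* gave 2.16.

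*C8b* had 13.76, 13.98 and 14.12 in *Pxr*+/+ Cont males and 12.21, 12.60 and 13.47 in the females of that setting. The 5 *Pxr*-/- Cont males had 14.26, 14.17, 14.79, 14.28 and 14.12, and the females 11.82, 12.24 and 13.63. With ATB the values were 13.93, 14.53 and 14.72 (*Pxr*+/+ males), 14.31, 14.47 and 14.79 (*Pxr*-/- males), 12.16, 12.55 and 13.07 (*Pxr*+/+ females) and 12.19, 12.58 and 13.14 (*Pxr*-/- females). All males were above all females, the lowest male (13.76) by little above the highest female (13.63). The difference was 1.74 (SE 0.10, adjusted p = 3.94e-18; 1.77, 1.62 and 1.88 within batches), a 3.35-fold higher signal in males, and a further probe gave 1.67.

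*C8g* encodes the gamma chain, a lipocalin bound to the alpha chain. Its *Pxr*+/+ Cont values were 16.24, 16.41 and 16.53 in males and 16.38, 16.49 and 16.60 in females, which overlap, and in all mice the males spanned 16.13 to 16.61 and the females 16.07 to 16.76. The difference was -0.03 (95% interval -0.13 to 0.07, adjusted p = 0.666), an interval that lies below the difference of each of the other 4 terminal genes. Over the alternatives it ranged from -0.04 to 0.18 and was not called in any.

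*C9*, which polymerises into the pore, had 14.86, 15.05 and 15.13 in *Pxr*+/+ Cont males and 13.86, 14.34 and 14.51 in the females. The 5 *Pxr*-/- Cont males had 15.06, 14.95, 15.39, 15.17 and 14.87, against 13.26, 13.57 and 14.98 in the females. ATB males had 14.80, 15.24 and 15.42 (*Pxr*+/+) and 15.14, 15.32 and 15.51 (*Pxr*-/-), and ATB females 14.06, 14.14 and 14.20 and 13.27, 13.70 and 14.39. As for *C8a*, only *Pxr*-/- Cont female 1 was above the lowest male. The difference was 1.17 (SE 0.09, 2.24-fold, adjusted p = 1.65e-14; 1.23, 1.06 and 1.17 within batches).

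Without *Pxr*-/- Cont female 1 the mean sex differences were 3.51 for *C6*, 2.12 for *C8a*, 1.80 for *C8b* and 1.23 for *C9*, all above the values with it. Among other complement genes not on the list, *C7* (-0.14, adjusted p = 0.0204) and *Hc*, which encodes C5 (0.08, adjusted p = 0.34), were not called by sex.

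Of the 9 other complement members, 4 were called lower in males over the mean of the 4 settings (23.6% of all genes were). None was called higher, though *C4bp* was under other normalizations. *Mbl2*, mannose-binding lectin C, was lower in males. It had 15.64, 15.88 and 16.03 in *Pxr*+/+ Cont males and 16.85, 17.03 and 17.21 in *Pxr*+/+ Cont females. In *Pxr*-/- Cont mice the 5 males had 15.96, 15.64, 16.23, 15.55 and 15.65, and the females 16.26, 16.70 and 17.15. ATB males had 16.14, 16.19 and 16.34 (*Pxr*+/+) and 15.36, 15.88 and 16.12 (*Pxr*-/-), and ATB females 16.75, 16.98 and 17.23 and 16.67, 16.80 and 17.06. Within each setting the sexes did not overlap, and 23 of 24 females were above the highest of all males. The difference was -0.96 (SE 0.06, adjusted p = 8.58e-17; -1.003, -0.918 and -0.92 within batches), a 1.95-fold lower signal. The related lectin *Mbl1* gave -0.15 and *Masp2*, a protease that cleaves C4 and C2, gave 0.04, and neither was called.

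*C3*, the protein on which all pathways converge, was 18.06, 18.14 and 18.25 in *Pxr*+/+ Cont males and 18.37, 18.50 and 18.57 in the females, which did not overlap. Its mean difference was -0.28 (SE 0.03, adjusted p = 3.5e-09), and *Cfb*, the protease of the alternative C3 convertase, differed by -0.35 (adjusted p = 8.55e-08). *Cfi*, the protease that inactivates C3b and C4b, differed by -0.32 (adjusted p = 3.17e-08). The other complement members were not called: *C4b* (-0.21) and *C2* (-0.03), of the classical and lectin convertase, and *C4bp* (0.22), a cofactor of factor I, of which a further probe was called higher in males at 0.38.

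**Figure D2:**
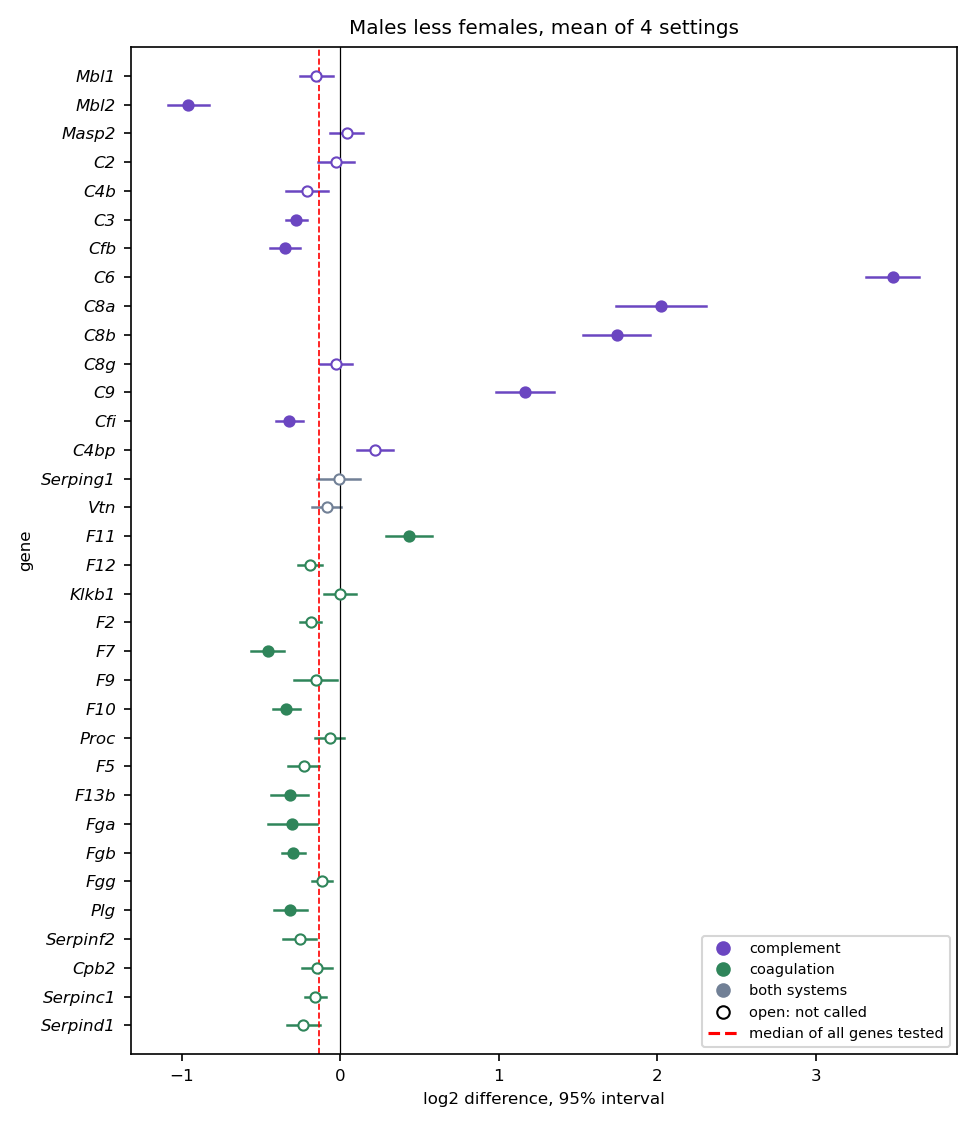
Log2 difference of males less females, mean of the 4 settings, for each of the 34 genes, ordered by role; points are limma estimates with 95% intervals, filled where called, and the dashed line is the median of all genes tested (-0.13). *C6*, *C8a*, *C8b*, *C9* and *F11* are called above 0, and *Mbl2* is the lowest at -0.96.

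Among the 18 coagulation genes, 1 was higher and 6 were lower in males, beside 3.32% and 23.6% of all genes. *F11*, factor XI of the contact system, was the 1 higher gene, at 0.43 (SE 0.07, 1.35-fold, adjusted p = 3.51e-06; 0.41, 0.49 and 0.37 within batches). In *Pxr*+/+ Cont mice its values were 11.73, 11.92 and 12.13 in males and 11.23, 11.78 and 12.51 in females, which overlap (difference 0.13, not called), and it was called in the other settings (0.55 in *Pxr*+/+ ATB, 0.58 in *Pxr*-/- Cont and 0.47 in *Pxr*-/- ATB mice). The other contact genes *F12* (-0.19) and *Klkb1* (0.00), prekallikrein and the neighbour of *F11* on chromosome 8, were not called.

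*F7*, factor VII, which starts clotting with tissue factor, had 10.95, 11.07 and 11.11 in *Pxr*+/+ Cont males and 11.56, 11.70 and 12.00 in the females, which did not overlap. Its mean difference was -0.46 (SE 0.05, adjusted p = 9.53e-10), a 1.37-fold lower signal. Of the other vitamin K-dependent genes, *F10* (factor X, -0.34, adjusted p = 1.36e-08) was lower in males, and *F2* (prothrombin, -0.19), *F9* (-0.16) and *Proc* (protein C, -0.07) were not called. The vitamin K cycle itself had 1 of 5 genes called by sex, *Nqo1* at -1.26.

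Of the fibrinogen chains, *Fga* (-0.30, adjusted p = 0.000904) and *Fgb* (-0.30, adjusted p = 3.97e-09) were lower in males and *Fgg* (-0.12) was not called. *F13b*, the carrier subunit of factor XIII that cross-links fibrin, differed by -0.32 (adjusted p = 1.5e-05), and *Plg*, plasminogen, by -0.32 (adjusted p = 1.48e-06). Not called were *F5*, the cofactor of factor Xa (-0.23), the inhibitors of clotting *Serpinc1* (antithrombin, -0.16) and *Serpind1* (heparin cofactor II, -0.23), and *Serpinf2* (antiplasmin, -0.26) and *Cpb2* (-0.15), which restrain fibrinolysis. The shared inhibitors *Serping1* (-0.01) and *Vtn* (-0.09) were not called either.

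The calls of *C3*, *Cfb*, *Cfi*, *F7*, *F10*, *F13b*, *Fga*, *Fgb* and *Plg* depended on how the arrays were scaled, and each was lost under at least 1 other normalization with the direction kept. The median of all genes tested was itself -0.13, and less this median *F7* was at -0.32, *Cfb* at -0.22 and *C3* at -0.14. Quantile normalization moved the median of all probes from -0.13 to 0.02 and gave 6 members higher and 4 lower in males, the processed signal (median 0.04) 6 and 1, normexp with quantile normalization 6 and 3, and the authors' processed values 6 and 6. In each of these, *C4bp* was the member newly called higher. *C6*, *C8a*, *C8b*, *C9*, *F11* and *Mbl2* were called under all 12 alternatives run for this comparison and in all 47 fits that left out 1 mouse.

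In *Pxr*+/+ Cont mice, 32.1% of all genes were called (2.18% higher and 29.9% lower in males), and 17% did not overlap between the sexes (1.08% higher and 15.9% lower). Of the members, 4 were higher and 17 lower, and 18 of the 21 called did not overlap (*C4b*, *Mbl1* and *F9* did). The 12 with the largest decrease were *Mbl2* (-1.18), *F7* (-0.66), *Fga* (-0.51), *F13b* (-0.51), *Cfi* (-0.49), *Cfb* (-0.45), *F10* (-0.44), *F9* (-0.44), *C4b* (-0.42), *Plg* (-0.41), *Serpind1* (-0.40) and *Serpinf2* (-0.35). After quantile normalization 4 were higher and 8 lower, on the processed signal 6 and 2, and with normexp and quantile normalization 4 and 8.

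In the other settings the background was 12.5% of all genes called in *Pxr*+/+ ATB mice (3.43% higher and 9.03% lower in males), 16.1% in *Pxr*-/- Cont mice (2.43% and 13.6%) and 25.7% in *Pxr*-/- ATB mice (2.53% and 23.2%). Of the members, 6 were higher and 3 lower in *Pxr*+/+ ATB mice (*Mbl2*, *Cfb* at -0.31 and *Cfi* at -0.27), 5 higher and 7 lower in *Pxr*-/- Cont mice, and 6 higher and 9 lower in *Pxr*-/- ATB mice. Lower in *Pxr*-/- Cont males were *Mbl2*, *C3* (-0.36), *F7* (-0.35), *F10* (-0.34), *Cfb* (-0.33), *Fgb* (-0.33) and *Cfi* (-0.29). Lower in *Pxr*-/- ATB males were *Mbl2*, *F7* (-0.53), *Plg* (-0.38), *F13b* (-0.38), *F10* (-0.35), *F5* (-0.35), *Fgb* (-0.31), *Cfb* (-0.31) and *Serpinf2* (-0.28). *C4bp* was called higher in males with ATB of either genotype (0.33 and 0.32). *C6*, *C8a*, *C8b* and *C9* were higher and *Mbl2* and *Cfb* lower in each of the 4 settings.

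Complement and coagulation members differed in the spread of their sex differences. Of 14 complement genes, 4 were higher and 4 lower in males, with a median of -0.03. Of 18 coagulation genes 1 was higher and 6 lower, with a median of -0.21. All genes had a median of -0.13, with 3.32% called higher and 23.6% lower. On the processed signal less its 75th percentile these medians were 0.165 for complement and -0.009 for coagulation. Without *C6*, *C8a*, *C8b* and *C9*, the 30 remaining members had 1 higher and 10 lower and a median of -0.19.

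Of 31 other complement genes tested, 2 were higher and 11 lower in males, beside 3.32% and 23.6% of all genes. The 2 higher were *Cfd* (4.55), factor D of the alternative pathway, and *Susd4* (4.37), a complement inhibitor, and the lower included *Cfp* (-1.06, properdin), *Vsig4* (-0.92, a receptor of macrophages), *Fcna* (-0.79) and the C1q chains *C1qa* (-0.70), *C1qb* (-0.62) and *C1qc* (-0.62). Of 28 other coagulation genes, 2 were higher (*F2r*, a thrombin receptor, 1.07, and *Serpina5*, 0.39) and 13 lower, among them *Thbd* (-0.70) and *Vwf* (-0.52).

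Markers of other cells moved with sex too, where 23.6% of all genes were called lower and 3.32% higher in males. Of 8 macrophage markers, a list that also holds *Vsig4*, 7 were lower in males (median -0.61). The mean over this list was 9.07 to 11.84 in males and 9.60 to 11.99 in females. Of other cells, 4 of 6 sinusoidal endothelial and 6 of 6 stellate cell markers were lower in males. So were 4 of 5 cholangiocyte markers (1 was higher), 3 of 4 of T and NK cells, 3 of 3 of B cells, 3 of 3 of neutrophils and 1 of 3 of platelets. Of 20 acute phase genes, none a member, 13 were lower in males (median -0.34). The part of these in the results on the members was not tested, and *Gp1ba*, a platelet marker, was well above background on 0 arrays and *Cd79a*, a B cell marker, on 1. Among hepatocyte transcription factors, *Cebpa* was higher (0.28) and *Stat3* lower (-0.30) in males.

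Between mice of a group, genes of 1 protein complex rose and fell together, with C8 gamma apart. After group and wash batch were removed, Pearson's r over 47 mice was 0.84 for *Fga* with *Fgb*, 0.84 for *Fga* with *Fgg* and 0.87 for *Fgb* with *Fgg* (Spearman's rho 0.75, 0.76 and 0.83), and 0.85 for *C8a* with *C8b* (rho 0.68). *C3* with *Cfb* gave 0.71 (rho 0.75). Each had a permutation p of 1e-05, the smallest that 100000 resamples can give, and an adjusted p of 1.8e-05 over 9 pairs. Without the 2 mice farthest from the median, r was 0.76, 0.74, 0.82, 0.77 and 0.67. In contrast, *C8g* gave -0.11 with *C8a* (adjusted p = 0.523) and 0.01 with *C8b* (adjusted p = 0.925), *Mbl1* with *Mbl2* gave 0.24 (adjusted p = 0.127) and *F11* with *Klkb1* 0.31 (adjusted p = 0.0531). The background is high, because over all 561 pairs of members the median r was 0.46 and 525 were above 0.

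*Pxr*-/- Cont female 1 stood apart from its group. Its mean over the 20 acute phase genes was 15.01, against 12.43 to 13.08 in the other 5. Of the 6 mice, this mouse was highest for 19 of the 20 genes and for 16 of the 34 members. The share of all genes highest in this mouse was not counted, and it was singled out after its values were seen. Over 47 mice, residuals of the acute phase mean correlated with those of *C9* (r = 0.80, rho 0.68, permutation adjusted p = 5e-05; 0.84, 0.67 and 0.90 within batches), *C8a* (r = 0.68, rho 0.44) and *C8b* (r = 0.58, rho 0.39). Without this mouse and *Pxr*-/- ATB male 1, r was 0.68 for *C9*, 0.42 for *C8a* and 0.40 for *C8b*. *C6* gave r = 0.34 (adjusted p = 0.0256) and rho 0.26 (adjusted p = 0.0952). Its r fell to 0.15 without the same 2 mice, and was 0.39, 0.44 and 0.13 within batches. *C8g* gave -0.01 (adjusted p = 0.966). The acute phase relation was chosen after values had been seen.

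**Figure D3:**
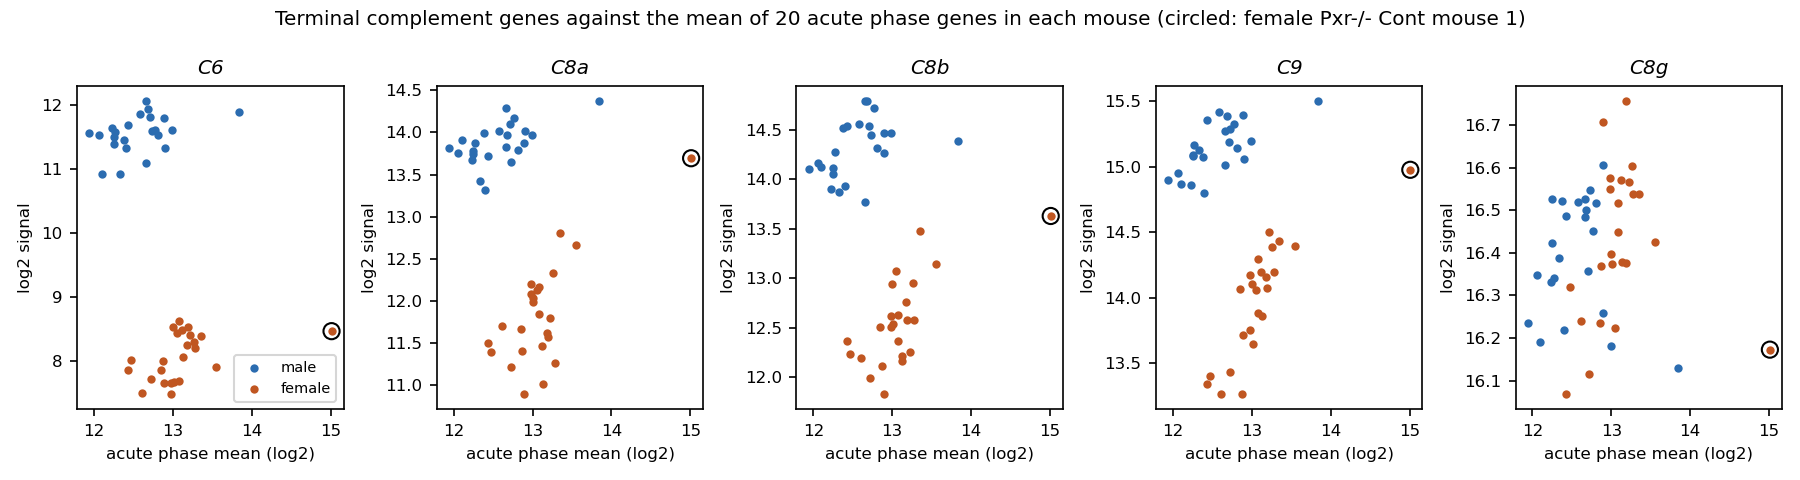
Log2 signal of the 5 terminal genes (y axis) against the mean log2 signal of 20 acute phase genes (x axis), 1 point per mouse, with males blue, females orange and *Pxr*-/- Cont female 1 circled at an acute phase mean of 15.01. Levels are plotted as measured, without removal of group or batch; within each sex *C9* is higher in mice with a higher acute phase mean, and males lie above females for *C6* throughout.

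For loss of PXR, the share of members called was near that of all genes. Over the mean of the 4 sex and treatment settings 3.92% of all genes were called (0.69% higher in *Pxr*-/- mice). Of the members 2.94% were called, which was 1 gene, *C2*. *Mbl2* (-0.22), *C4bp* (-0.19), *Serpind1* (-0.18), *F10* (-0.13), *F2* (-0.11) and *Serpinc1* (-0.11) passed the adjusted p but not the fold threshold. Complement members had a median difference (*Pxr*-/- less *Pxr*+/+) of -0.07, coagulation members of -0.10 and all genes of -0.07, and 15 of the 34 (44.1%) had an unadjusted p under 0.05, as did 31.3% of all genes.

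*C2*, the protease of the classical and lectin C3 convertase, rose in *Pxr*-/- mice. In Cont males it was 13.12, 13.35 and 13.54 in *Pxr*+/+ and 13.98, 13.78, 14.11, 13.71 and 13.65 in the 5 *Pxr*-/- mice, which did not overlap (0.336% of all genes were higher without overlap). In ATB males it was 13.36, 13.64 and 13.86 in *Pxr*+/+ and 13.98, 14.04 and 14.29 in *Pxr*-/- mice, again without overlap (0.304% of all genes). Females overlapped, with 13.45, 13.60 and 13.75 against 13.43, 13.94 and 14.11 on plain water and 13.24, 13.70 and 13.89 against 13.66, 13.94 and 14.20 with ATB. The mean difference was 0.37 (SE 0.06, 1.30-fold, adjusted p = 2.15e-05; 0.28, 0.46 and 0.48 within batches). By setting it was 0.51 in Cont males (adjusted p = 0.0612), 0.44 in ATB males (adjusted p = 0.046), 0.24 in Cont females (adjusted p = 0.203) and 0.30 in ATB females (adjusted p = 0.83). Of the 4 settings only ATB males reached the call (0.906% of all genes did), which held in 2 of 12 fits that left out 1 mouse, whereas the mean over the 4 settings stayed called in all 47. The difference in genotype effect on *C2* between the sexes was 0.27 on plain water and 0.14 with ATB, neither called (adjusted p = 0.973 and 0.685).

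*Cfb*, the neighbour of *C2* on chromosome 17 and its counterpart in the alternative pathway, was not called in any genotype comparison. Of the members, 0 were called in Cont males (0.189% of all genes) and 0 in ATB females (0.207%).

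In Cont females 3.16% of all genes were called and 1 member, *Serpind1*, heparin cofactor II. It was 15.39, 15.67 and 15.70 in *Pxr*+/+ and 14.90, 15.24 and 15.54 in *Pxr*-/- females, which overlap. The difference was -0.36 (SE 0.10, adjusted p = 0.0473), -0.45, -0.38 and -0.03 within the wash batches, and the call held in 3 of 12 fits that left out 1 mouse (-0.29, adjusted p = 0.129, without *Pxr*-/- Cont female 1). Over the 4 settings it was -0.18, below the fold threshold. In this comparison 33 of the 34 members were below 0, as were 80.7% of all genes; the median of all genes was -0.12 and 15 members lay above it.

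The same mouse weighed on the terminal genes. In Cont females the *Pxr*-/- difference was -0.49 for *C6* (adjusted p = 0.0839), -0.49 for *C9* (adjusted p = 0.109), -0.19 for *C8a* (adjusted p = 0.711) and -0.30 for *C8b* (adjusted p = 0.399). Without it, *C6* (-0.61, adjusted p = 0.0424), *C9* (-0.74, adjusted p = 0.00347) and *Cpb2* (-0.28, adjusted p = 0.028) were called, and *C8a* (-0.59, adjusted p = 0.132) and *C8b* (-0.56, adjusted p = 0.0834) were not. With all mice none of the 5 was called.

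Of the other complement genes 6 were lower in *Pxr*-/- mice over the 4 settings (*Vsig4* -0.46, *C1qb* -0.44, *C1qa* -0.43, *C1qc* -0.41, *Fcna* -0.35 and *Susd4* -0.33) and 0 higher. In this comparison 3.92% of all genes were called in either direction. Of 28 other coagulation genes 2 were lower, *F8* (-0.27), made by endothelium, and *Procr*. Of the macrophage markers, a list that also holds *Vsig4*, 4 of 8 were lower over the 4 settings and 4 of 8 in Cont females, where *C1qa* differed by -1.05. Of the sinusoidal endothelial markers, 4 of 6 were lower over the 4 settings (median -0.32) and 3 of 6 in Cont females. The part of these cells in the results was not tested.

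With ATB, too, the share of members called was near that of all genes. Over the mean of the 4 sex and genotype settings 2.34% of all genes were called (1.47% higher with ATB). Of the members 2.94% were called, which was 1 gene, *F11*. Of the 34, 29 lay above the median of all genes (17 of 18 coagulation and 10 of 14 complement), with medians of 0.12 for coagulation, 0.07 for complement and 0.03 for all genes, and 17 (50%) had an unadjusted p under 0.05, as did 21.6% of all genes. *Serpinf2* (0.23), *Plg* (0.22), *F13b* (0.21), *F5* (0.18), *Klkb1* (0.17) and *Cfi* (0.14) passed the adjusted p but not the fold threshold.

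*F11* in *Pxr*+/+ males was 11.73, 11.92 and 12.13 on plain water and 12.22, 12.69 and 12.96 with ATB, without overlap. The 5 *Pxr*-/- Cont males had 12.13, 12.13, 12.36, 11.98 and 11.91, against 12.22, 12.56 and 12.81 with ATB, which overlap. *Pxr*+/+ females had 11.23, 11.78 and 12.51 against 11.76, 12.09 and 12.39, which overlap, and *Pxr*-/- females 11.35, 11.50 and 11.80 against 11.93, 12.09 and 12.40, which do not (0.598% of all genes were higher without overlap). The mean difference was 0.52 (SE 0.07, 1.43-fold, adjusted p = 7.74e-06; 0.54, 0.43 and 0.62 within batches). By setting it was 0.72 in *Pxr*+/+ males (adjusted p = 0.00554; 0.74, 0.44 and 1.23 within batches), 0.47 in *Pxr*-/- males (adjusted p = 0.411), 0.30 in *Pxr*+/+ females (adjusted p = 0.465) and 0.58 in *Pxr*-/- females (adjusted p = 0.073).

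**Figure D4:**
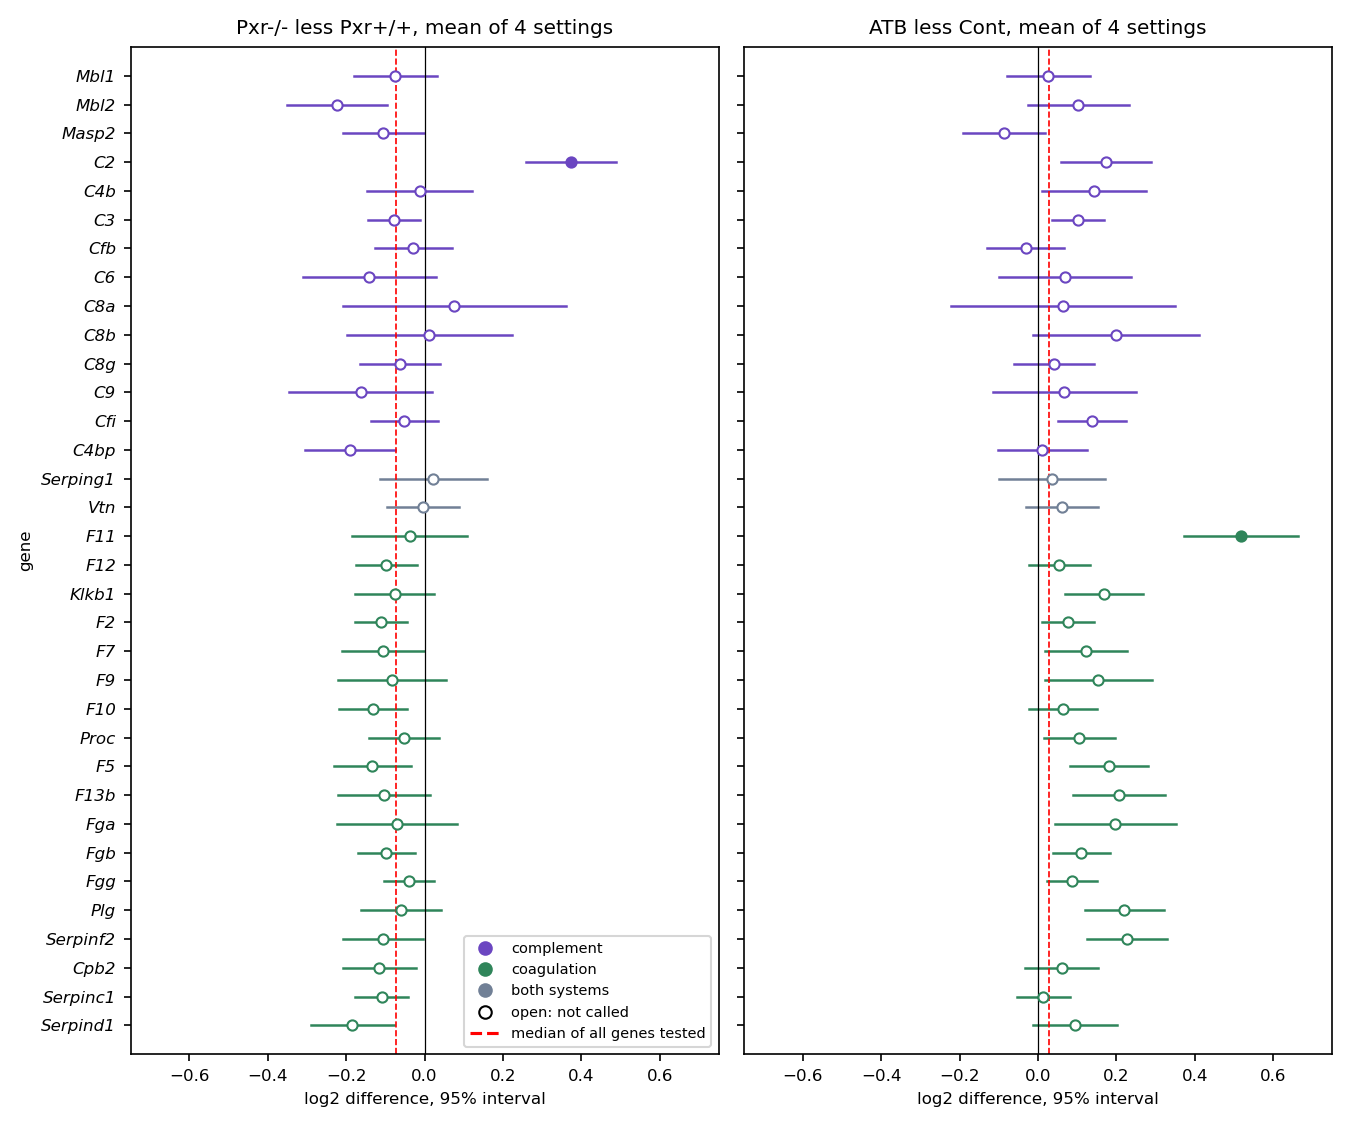
Log2 difference for each of the 34 genes, *Pxr*-/- less *Pxr*+/+ and ATB less Cont, each the mean of 4 settings, with 95% intervals and filled points where called, the dashed line being the median of all genes tested. *C2* is called for genotype (0.37) and *F11* for ATB (0.52).

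In *Pxr*+/+ males, where 1.04% of all genes were called and 3.79% were higher with ATB without overlap, *F11* was the 1 member called, 8 members were higher without overlap (7 of them of coagulation), and 21 (61.8%) had an unadjusted p under 0.05, as did 18.6% of all genes. With arrays scaled on spike-in probes the *F11* call was lost in this setting, though not over the 4 settings, and with only the 2 groups in the fit 8 members were called. The median of the members was 0.19, beside 0.10 for all genes, and 33 of 34 were above 0, as were 76.6% of all genes. In *Pxr*-/- males (0.11% of all genes called), *Pxr*+/+ females (0.0138%) and *Pxr*-/- females (0.0276%) no member was called by limma. Outside the list, *Hrg* (0.27 over the 4 settings, adjusted p = 0.0029) and *Kng2* (0.46 in *Pxr*+/+ males, adjusted p = 0.0102), which encode plasma proteins of the contact and clotting systems, rose with ATB, and 0 of 31 other complement genes did.

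**Figure D5:**
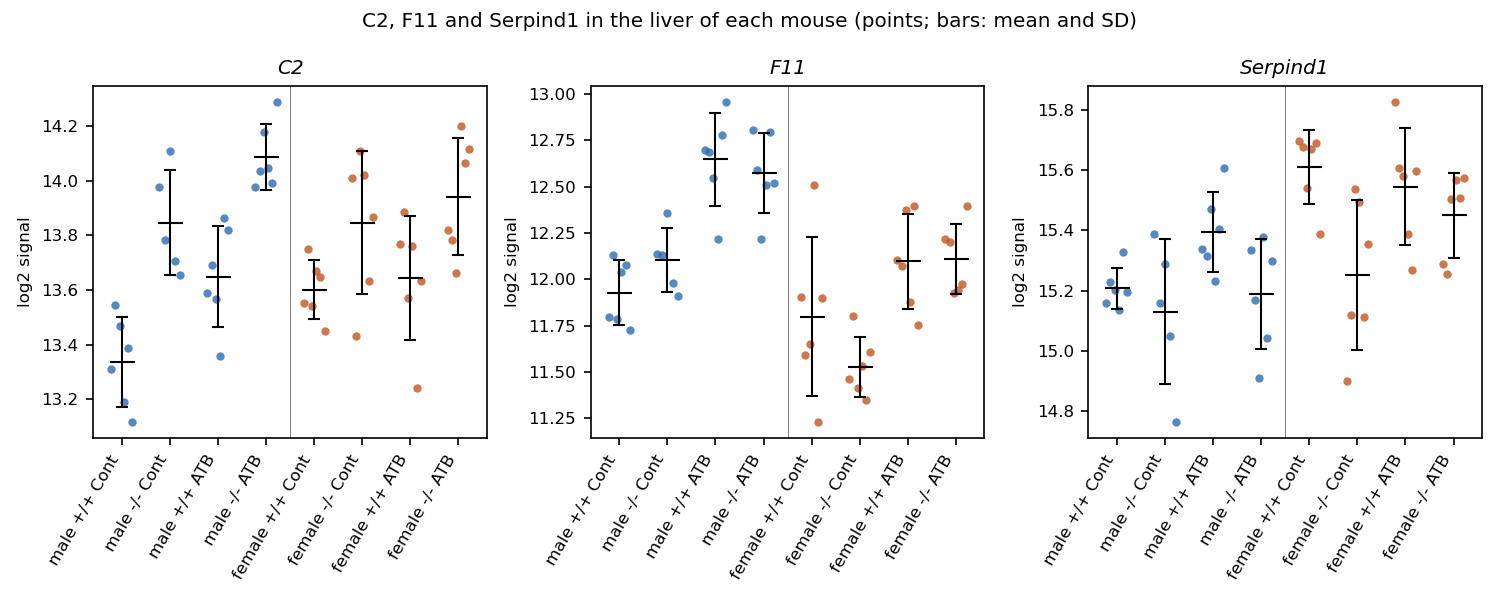
Log2 signal of *C2*, *F11* and *Serpind1* in each mouse of the 8 groups, with group means and SD. *C2* is higher in *Pxr*-/- than in *Pxr*+/+ males of the same treatment without overlap, and *F11* is higher with ATB in *Pxr*+/+ males without overlap.

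No member was called for a difference between effects in limma's interaction contrasts. The share of all genes called was 0.023% and 0.046% for the genotype effect between the sexes on plain water and with ATB, 0.0414% and 0.0046% for the ATB effect between the sexes in *Pxr*+/+ and *Pxr*-/- mice, and 0.0184% and 0% for the ATB effect between genotypes in males and females. At an unadjusted p under 0.05, the effect of genotype differed between the sexes on plain water in 6 members (17.6%, beside 4.43% of all genes), with *C6* (0.60), *C9* (0.57) and *C8b* (0.66) among them. The effect of ATB differed between the sexes in *Pxr*+/+ mice in 8 members (23.5%, beside 12.9% of all genes), with *F9* at 0.50 (unadjusted p = 0.0115, adjusted p = 0.319). With ATB, the genotype effect differed between the sexes in 1 member (2.94%, beside 8.72%), *C6* at 0.49, and in the other 3 interaction contrasts the count was 0 (beside 4.86%, 5.03% and 9.37% of all genes).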

How the data were processed

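Hepatic mRNA of 47 mice was hybridised to 1-colour Agilent arrays, 1 per mouse. The deposited scanner files (Agilent Feature Extraction 10.10.1.1 per the submitters' processing notes) give linear spot intensity, with the median signal neither background-subtracted nor scaled. The authors also deposited log2 values of 33383 probes after a filter, a correction for the washing batch and CrossNorm, which served as an alternative. How they filtered and stacked the arrays is not given in the sources used here.

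Here median signals were log2-transformed and averaged per probe, without control spots and 422 non-uniform spot values (0 of them of a member). Probes had to be well above background in 5 or more mice of 1 group, which kept 32974 of 56605 probes, with 31067 to 34458 well above background per array; arrays carry no read depth, and their number limits the precision. The wash batch (3 levels, each with all 8 groups, on 6 slides) was removed with the group means kept. CrossNorm was averaged over 300 random stackings of 1 array per group. One limma model (limma 3.58.1, R 4.3.3, data.table version 1.17.8) held the groups and the wash batch, and each comparison was a contrast, tested with Benjamini-Hochberg adjustment over all probes tested. Correlations used permutation tests, two-sided, and Python 3.11.15 with matplotlib 3.10.9 drew the figures. The fit was tested on simulated data.

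Symbols and probe positions (mm9) came from the array files, promoters from RefSeq on GRCm38.p6, and no coordinate was converted. Where a gene had several probes the brightest stood for it. The text names every called member or the 12 with the largest change per direction, subunits of the same complex, and of other pathway genes at most the 10 called with the largest change; other genes named by their pathway role were chosen after their values were seen. The members, lists and comparisons were chosen with earlier results of these data known. Normalization, background correction, filter, batch, slide, replicate number, probe choice and fold threshold were varied in 16 alternatives, 1 of which left out each mouse in turn and 2 of which placed *Serping1* and *Vtn* with complement or with coagulation.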

Additional observations from a re-analysis of the deposited data

Results flagged for a closer look

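In each group of 5 or 6 mice the highest and the lowest log2 signal of every member were set against the nearest other mouse by Dixon's test. Of 272 groups, 13 held a mouse far from the rest (9 the highest, 4 the lowest, in 10 genes). This share is near the 1 in 20 that chance gives, so the flags alone do not set these mice apart.

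Of the terminal complement genes, *Pxr*-/- Cont female 1 was far above its group for *C8a* (13.69, next 11.84), *C8b* (13.63, next 12.36) and *C9* (14.98, next 13.88), and also for *Cpb2*, an inhibitor of fibrinolysis (15.9, next 15.28). For *C8b*, *Pxr*-/- Cont male 4 was also high (14.79, next 14.28) and *Pxr*+/+ ATB male 4 low (13.93, next 14.45). *Pxr*-/- ATB male 1 was high for *C4b* (17.23, next 16.66) and for *Serping1*, the C1 inhibitor (16.11, next 15.8), and its acute phase mean of 13.84 was the highest of its group.

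*Pxr*+/+ Cont female 1 was low for *C4bp* (14.83, next 15.19) and *Pxr*+/+ Cont male 1 low for *F9* (12.11, next 12.42). *Pxr*+/+ ATB male 4 was low for *F13b* (12.71, next 12.95), *Pxr*+/+ Cont female 4 high for *Proc* (15.97, next 15.77) and *Pxr*+/+ ATB female 1 high for *Cpb2* (15.54, next 15.34).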

How the results depend on the processing

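No called result changed direction under any alternative, though the median sex difference of complement members, -0.03, was 0.165 on the processed signal, and *C6*, *C8a*, *C8b*, *C9*, *F11* and *Mbl2* by sex, *C2* by genotype and *F11* by ATB, each over the mean of 4 settings, stayed called in all. What moved were counts of members called; unless stated, the cause was not tested. In *Pxr*+/+ Cont mice the count by sex (21) was 12 with quantile normalization, 8 on the processed signal and 12 with normexp, and over the 4 settings (15) it was 7 on the processed signal and 9 with normexp. With no minimum fold change the counts over 4 settings were 27 by sex, 7 by genotype and 7 by ATB, since more genes could pass. With only the groups compared in the fit, the counts were 6 by sex in *Pxr*-/- Cont mice (12), 0 by genotype in ATB males and in Cont females (1 in each) and 8 by ATB in *Pxr*+/+ males (1). By genotype in Cont males (0), the count was 1, *C2*, with quantile normalization, the processed signal, normexp, the authors' processed values and the mean of all probes of a gene. In ATB males (1) it was 0 with no filter on dim probes and 0 with no wash batch. In Cont females (1) it was 2 with quantile normalization, normexp and the authors' values, and 0 with spike-in scaling, no filter and no wash batch. By ATB in *Pxr*+/+ males (1) it was 0 with spike-in scaling and 2 with the authors' values.

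Over 161 pairs of mice of the same replicate number, residuals correlated at a median of -0.051 (-0.394 to 0.549), with 34 above 0.1. Pairs of different numbers were not compared, so these values do not decide whether the numbers pair the mice. With the replicate block in place of the wash batch the count by genotype in ATB males was 0 in place of 1, and no other count moved by over 1.5 times.

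With each mouse left out in turn, the counts by sex were 20 to 22 (*Pxr*+/+ Cont), 6 to 9 (*Pxr*+/+ ATB), 9 to 16 (*Pxr*-/- Cont), 13 to 17 (*Pxr*-/- ATB) and 14 to 16 (mean). By genotype they were 0 to 1 in Cont males, 0 to 1 in ATB males, 0 to 3 in Cont females, 0 to 0 in ATB females and 1 to 1 for the mean, and by ATB 1 to 1 in *Pxr*+/+ males, 0 to 0 in the other 3 settings and 1 to 1 for the mean; each of the 6 interaction contrasts gave 0 to 0. The count of 3 in Cont females came without *Pxr*-/- Cont female 1. In Cont males, *C2* was called without *Pxr*+/+ male 2 or without *Pxr*-/- male 6.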
